A study of Mus musculus with 8 samples.

Results

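Plasminogen activation was followed at the mRNA level in 6 genes, out of 31053 genes counted in the series. They are a list of names with no threshold on any value, drawn up with earlier results of these data known: the activators *Plau* and *Plat*, the receptor *Plaur*, and the serpins *Serpine2*, *Serpinf1* and *Serpinb6a*. All 6 had enough counts to be tested, as did 10181 genes in all. The cells were fibro/adipogenic progenitors (FAPs), the resident mesenchymal progenitors of skeletal muscle, from hind limb muscles of C57BL/10ScSn-Dmdmdx/J (*mdx*) mice aged 45 days, which lack dystrophin. They were depleted of CD45+ and CD31+ cells, sorted as ITGA7- SCA-1+ and separated into SCA1-High-FAPs and SCA1-Low-FAPs by the intensity of the surface antigen SCA-1. Each cell state was grown for 5 days in growth medium and detached with trypsin and EDTA before RNA extraction. The 4 samples of a state came from 4 mice, and no source used here says whether both states came from the same mice. Every sample is thus from dystrophic muscle and from cultured cells, and no wild type sample is included. The comparison asks how the cell states differ before any differentiation is induced.

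Plasmin, the main fibrin-degrading protease, is made from plasminogen by urokinase (uPA, from *Plau*) or by tissue-type plasminogen activator (tPA, from *Plat*). Urokinase is held at the cell surface by its receptor uPAR (from *Plaur*), where plasmin formation bears on matrix turnover and cell migration. Serpins are a family of proteins of which most trap a protease through an exposed loop, and several of them inhibit the activators, among them protease nexin-1 (from *Serpine2*).

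Between 1880561 and 3985656 reads were counted on genes per sample. In these 3′ libraries a transcript gives reads near its 3′ end, so counts do not grow with transcript length. Levels of different genes are thus set side by side as CPM, without division by length. CPM are the counts of a gene for every 1000000 counts on the tested genes, after scaling with TMM factors. A gene with 3 counts, the least taken as detectable, corresponds to between 0.753 and 1.60 CPM before that scaling and for every 1000000 counts on all genes. *Ly6a*, which encodes SCA-1, was higher in SCA1-Low-FAPs at the mRNA level after culture, at 1087 ± 58.8 CPM there and 711 ± 184 CPM in the other cell state (SD, n = 4, log2 fold change 0.61, adjusted p = 0.0341 from edgeR), opposite in direction to the antigen used for the sort. Of the markers listed for other muscle cell types, 3 of 7 myogenic, 5 of 6 endothelial and 5 of 7 haematopoietic genes had counts. *Pax7*, *Myf5*, *Myod1* and *Myog* of myogenic cells, *Emcn* of endothelium, and *Adgre1* and *Itgam* of myeloid cells had none in any sample. The most counted over the 8 samples were *Itga7* with 44, *Tek* with 53, and *Lyz2* and *Csf1r* with 389 and 90. The mesenchymal list was detected in full, 9 of 9 genes.

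None of the 6 genes was differentially expressed by edgeR when the adjusted *p*-value had to be under 0.05 and the log2 fold change beyond 0.5 in either direction. Of all tested genes 7.68% were, with 3.32% higher and 4.36% lower in SCA1-Low-FAPs. At an unadjusted *p*-value under 0.05 there were 4 of the 6 (*Plau*, *Plaur* and *Serpinb6a* with more mRNA in SCA1-Low-FAPs, *Serpine2* with less), against 21.3% of all tested genes. DESeq2 called 1 of the 6, *Plau*, and 8.53% of the genes to which it gave an adjusted *p*-value. The log2 fold changes, positive where SCA1-Low-FAPs were higher, had a median of 0.10 over the 6 genes and of 0.0003 over all tested genes. The groups did not overlap in 1 of the 6 genes, *Plau*, and in 14.1% of all tested genes, of which 6.67% were towards SCA1-Low-FAPs and 7.46% towards SCA1-High-FAPs as shares of all tested genes.

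**Figure D1:**
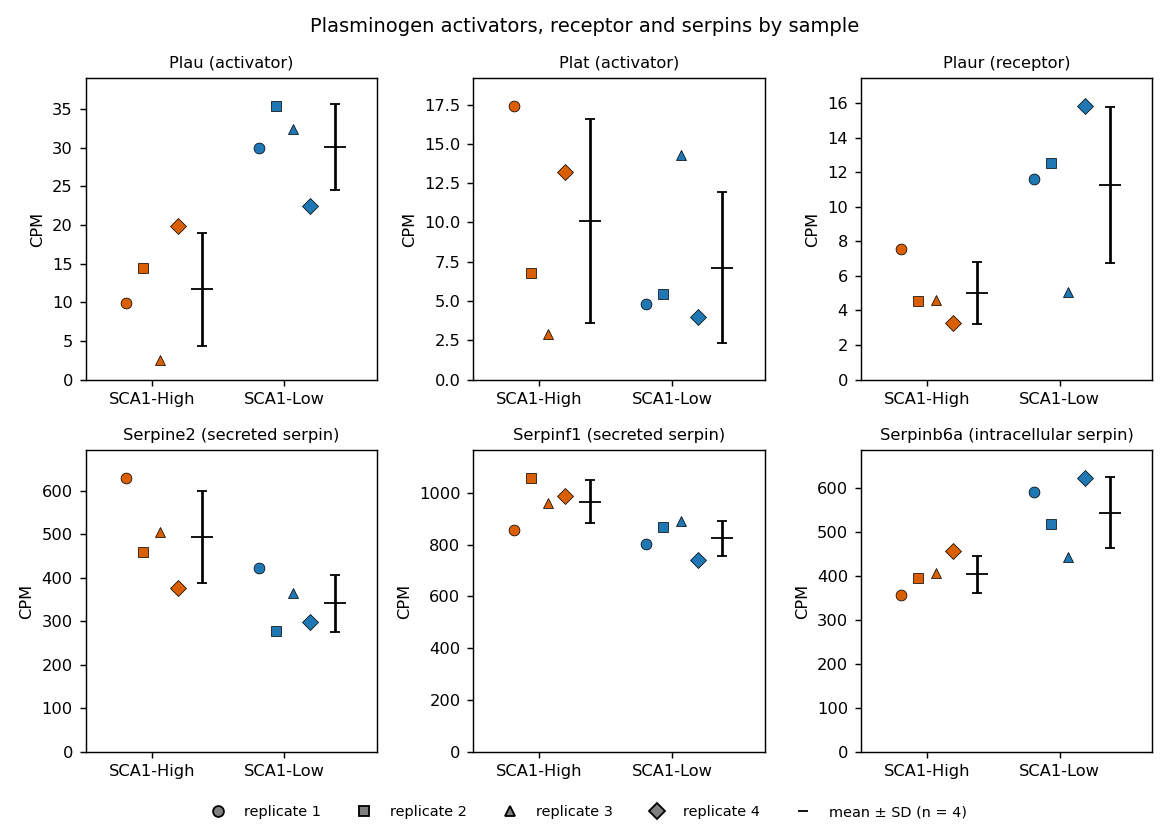
Level of each gene in CPM (vertical axes from 0, different scale per gene) in the 4 SCA1-High-FAPs and 4 SCA1-Low-FAPs samples, with symbols for the replicate number and the mean ± SD of each group to the right of its points. In *Plau* all 4 SCA1-Low-FAPs samples, at 22.4 CPM or more, lie above the highest SCA1-High-FAPs sample at 19.8 CPM, whereas the groups overlap in the other genes.

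*Plau*, on chromosome 14 of GRCm38 from 20836660 to 20843385 (plus strand), encodes urokinase. In SCA1-High-FAPs it stood at 9.89, 14.5, 2.51 and 19.8 CPM in replicates 1 to 4, from 6 to 54 counts. In SCA1-Low-FAPs it stood at 30.0, 35.4, 32.4 and 22.4 CPM, from 62 to 102 counts. Every SCA1-Low-FAPs sample was above every SCA1-High-FAPs sample, a separation towards SCA1-Low-FAPs found in 6.67% of all tested genes. The means were 11.7 ± 7.33 CPM and 30.0 ± 5.53 CPM (SD, n = 4), apart by 1.35 on the log2 scale (SE, standard error, 0.41, 95% interval 0.47 to 2.22), or 2.54-fold. It missed the threshold in edgeR (adjusted p = 0.0568) and passed in DESeq2 (adjusted p = 0.03). The spread was wider in SCA1-High-FAPs, with a coefficient of variation of 62.8% against 18.4%. Without replicate 4 of SCA1-High-FAPs, the highest of its group, the log2 fold change was 1.74 and passed (adjusted p = 0.0219 from edgeR). Without replicate 3 of SCA1-High-FAPs, the lowest, it was 1.01 (adjusted p = 0.0723 from edgeR). Of the 8 fits that leave out 1 sample, 1 passed.

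*Plat*, on chromosome 8 from 22757727 to 22782844 (plus strand), encodes the other activator. Its values were 17.4, 6.78, 2.92 and 13.2 CPM in SCA1-High-FAPs. They were 4.83, 5.44, 14.3 and 3.96 CPM in SCA1-Low-FAPs, all within the range of the other cell state, with replicates 1, 2 and 4 close together and replicate 3 above them. With 7 to 45 counts per sample, the log2 fold change of −0.48 (SE 0.57, 95% interval −1.69 to 0.73, adjusted p = 0.698 from edgeR) has an interval that spans 0. Single libraries moved it, to −1.10 without replicate 3 of SCA1-Low-FAPs and to −0.09 without replicate 1 of SCA1-High-FAPs, and it passed the threshold in neither fit.

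*Plaur*, on chromosome 7 from 24462484 to 24475968 (plus strand), encodes the urokinase receptor. It was the least abundant of the 6 in SCA1-High-FAPs, at 7.53, 4.52, 4.59 and 3.30 CPM. In SCA1-Low-FAPs it stood at 11.6, 12.5, 5.07 and 15.8 CPM. Replicates 1, 2 and 4 of SCA1-Low-FAPs were above all SCA1-High-FAPs, and replicate 3 was within their range. The log2 fold change was 1.18 (SE 0.50, 95% interval 0.12 to 2.23), with 9 to 60 counts per sample, and did not pass (adjusted p = 0.176 from edgeR and 0.169 from DESeq2).

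*Serpine2*, on chromosome 1 from 79794197 to 79861180 (minus strand), encodes protease nexin-1, a secreted inhibitor of urokinase, tPA and thrombin. SCA1-High-FAPs held 629.9, 460.2, 506 and 377 CPM. SCA1-Low-FAPs held 423, 278, 366 and 299 CPM. Replicates 2 to 4 of SCA1-Low-FAPs lay below all SCA1-High-FAPs, and replicate 1 lay among them. The means of 493 ± 105 CPM and 341 ± 65.9 CPM (SD, n = 4) gave a log2 fold change of −0.53 (SE 0.17, 95% interval −0.90 to −0.16). There were 511 to 1338 counts per sample, and the adjusted p of 0.0725 from edgeR (0.0545 from DESeq2) was above the threshold. Without replicate 4 of SCA1-High-FAPs, the lowest of its group, the log2 fold change was −0.64 and passed (adjusted p = 0.0385 from edgeR). Without replicate 1 of SCA1-High-FAPs, the highest, it was −0.39 (adjusted p = 0.226 from edgeR). Of the 8 fits that leave out 1 sample, 1 passed.

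*Serpinf1*, on chromosome 11 from 75409769 to 75422701 (minus strand), encodes pigment epithelium-derived factor, a secreted serpin that is not a protease inhibitor and is known as an antiangiogenic factor. It was the most abundant of the 6, at 856, 1059, 963 and 988 CPM in SCA1-High-FAPs. In SCA1-Low-FAPs it was at 801, 868, 890.3 and 740.2 CPM. The groups overlapped and varied little, with coefficients of variation of 8.68% and 8.25%. The log2 fold change of −0.23 (SE 0.13, 95% interval −0.51 to 0.06, adjusted p = 0.359 from edgeR) bounds the difference to between 0.701-fold and 1.04-fold.

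*Serpinb6a*, on chromosome 13 from 33917918 to 34002794 (minus strand), encodes an intracellular serpin that inhibits trypsin-like proteases. SCA1-High-FAPs held 356, 397, 406 and 458 CPM. SCA1-Low-FAPs held 592, 520.0, 443 and 624 CPM, so that all but replicate 3 were above every SCA1-High-FAPs sample. The log2 fold change of 0.43 (SE 0.15, 95% interval 0.12 to 0.74) did not pass (adjusted p = 0.0854 from edgeR and 0.06 from DESeq2). Without replicate 3 of SCA1-Low-FAPs, the lowest of its group, it was 0.51 and passed (adjusted p = 0.0404 from edgeR). Without replicate 4 of SCA1-Low-FAPs, the highest, it was 0.35 (adjusted p = 0.254 from edgeR). Of the 8 fits that leave out 1 sample, 1 passed. *Serpinb6a* overlaps *Ripk1*, *Nqo2* and *1110046J04Rik* on the opposite strand, with 1136, 691 and 181 counts over the 8 samples against 9797 for *Serpinb6a*. The strand setting of the counting is not given in the sources used here. Its relatives *Serpinb6b* and *Serpinb6c* had 8 and 19 counts over the 8 samples, and reads that aligned to several places were given to no gene.

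The start regions of the receptor and of the secreted serpins are shown because their base composition differs, as read from RefSeq (GRCm38.p6), which held a promoter for 4 of the 6 genes. Each is the 150 bases before the annotated start, 5′ to 3′ on the strand of the gene, at chr1:79858666-79858815 (minus), chr11:75422624-75422773 (minus) and chr7:24462333-24462482 (plus). Capitals mark the GC box GGGCGG, the AP-1 motif TGACTCA and the TATA box TATAAA, searched on both strands with overlapping matches counted. The RefSeq starts of *Serpine2* and *Serpinf1* lie inside the gene spans given above, which come from GENCODE and reach further upstream, so that the *Serpine2* window is wholly and the *Serpinf1* window partly within the annotated gene.
Serpine2: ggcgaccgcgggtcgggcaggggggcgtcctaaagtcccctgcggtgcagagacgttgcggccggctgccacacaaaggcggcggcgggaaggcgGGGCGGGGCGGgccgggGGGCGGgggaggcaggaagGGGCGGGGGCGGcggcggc
Serpinf1: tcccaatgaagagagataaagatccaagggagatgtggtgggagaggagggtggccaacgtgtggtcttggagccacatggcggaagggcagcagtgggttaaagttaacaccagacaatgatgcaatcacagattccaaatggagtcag
Plaur: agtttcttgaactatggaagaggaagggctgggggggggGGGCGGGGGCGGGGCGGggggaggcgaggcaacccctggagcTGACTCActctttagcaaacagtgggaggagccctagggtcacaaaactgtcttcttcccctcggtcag
The *Serpine2* window was 81.3% G and C and held 5 GC boxes, that of *Plaur* 62.7% with 3 GC boxes and 1 AP-1 motif starting 69 bases before the start, and that of *Serpinf1* 50.7% with none of the 3 motifs. *Serpinb6a*, the other gene with a promoter there, had 2 entries, which are not printed. They were 60% G and C with 2 GC boxes and 54% with none of the 3 motifs. Over all 32851 promoter windows of this length the mean was 54.8% G and C, and 28.6% held a GC box, 2.84% an AP-1 motif and 7.57% a TATA box. These matches describe letters only, since binding was not measured here.

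The serpins were far above the activators and the receptor in both cell states. In SCA1-High-FAPs the order of the levels was *Serpinf1*, *Serpine2*, *Serpinb6a*, *Plau*, *Plat* and *Plaur*, in which *Serpine2* and *Serpinb6a*, *Plau* and *Plat*, and *Plat* and *Plaur* were neighbours with overlapping ranges. In SCA1-Low-FAPs *Serpinb6a* (545 ± 80.6 CPM) came before *Serpine2* (341 ± 65.9 CPM) in 4 of 4 samples, and *Plau* (30.0 ± 5.53 CPM) stood clear of *Plaur* (11.3 ± 4.51 CPM) and *Plat* (7.13 ± 4.80 CPM), which overlapped (all SD, n = 4). Among all tested genes, *Serpinf1* was above 98.7%, *Serpinb6a* above 97.2% and *Serpine2* above 96.7% in mean log2 CPM, whereas *Plau* was above 32.6%, *Plat* above 12.2% and *Plaur* above 11.8%.

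**Figure D2:**
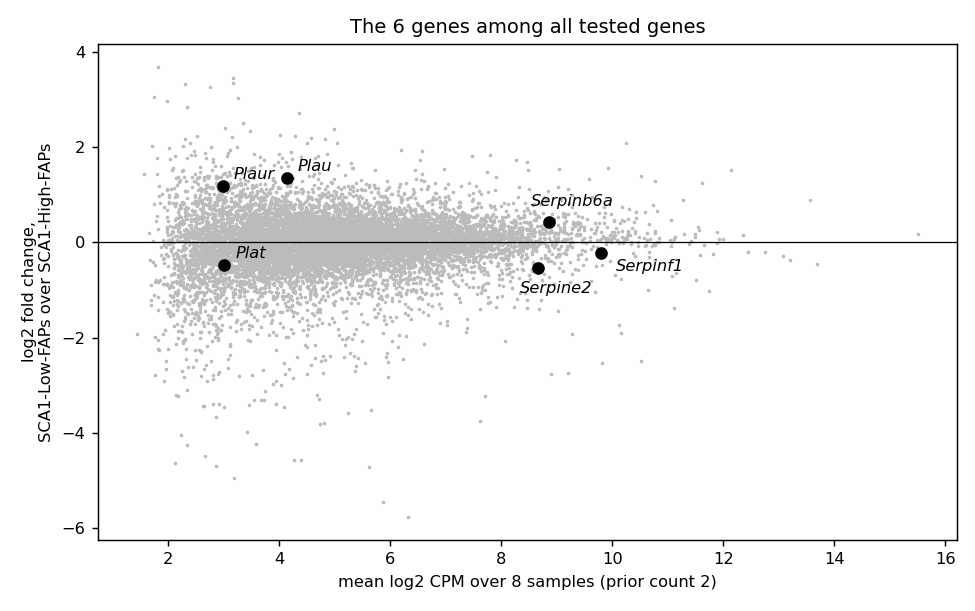
Log2 fold change between the cell states, positive where SCA1-Low-FAPs were higher (vertical axis) against the mean log2 CPM over the 8 samples (horizontal axis), with a grey point for each of the 10181 tested genes and black points for the 6 genes. The 3 serpins lie at the right, among the abundant mRNAs, with changes between −0.53 and 0.43, while *Plau* and *Plaur* lie at the left, at 1.35 and 1.18.

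Proportions within a library do not depend on the scaling between libraries and are given as a description, with no test. *Plau* made up 36.2%, 68.1%, 46.2% and 60.0% of the summed *Plau* and *Plat* counts in SCA1-High-FAPs. In SCA1-Low-FAPs it made up 86.1%, 86.7%, 69.4% and 85.0%. Urokinase mRNA was thus the larger part of the activator mRNA in all SCA1-Low-FAPs and in 2 of the 4 SCA1-High-FAPs, and the lowest SCA1-Low-FAPs sample was just above the highest SCA1-High-FAPs sample, well within their exact 95% binomial intervals of 61.3% to 76.7% and 52.9% to 80.9%. The shares rest on 13 to 147 counts per sample, fewest in replicate 3 of SCA1-High-FAPs (13, interval 19.2% to 74.9%). These intervals cover counting error only. *Plau*, the numerator, was itself without overlap in CPM, so this share is not a result apart from that of *Plau*.

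*Serpine2* counts exceeded *Plau* counts in every sample. There were 19.1 to 202 *Serpine2* counts per *Plau* count in SCA1-High-FAPs and 7.86 to 14.1 in SCA1-Low-FAPs, without overlap. *Plau*, the denominator, was itself without overlap in CPM, so this ratio is not a result apart from that of *Plau*. The highest value, in replicate 3 of SCA1-High-FAPs, has only 6 *Plau* counts as its denominator, and the mean of that group without it was 38.2, against 79.1 with it. *Plaur* counts per *Plau* count overlapped between the groups, at 0.167 to 1.83 and 0.157 to 0.706. *Serpinb6a* counts per *Serpine2* count were 0.565, 0.862, 0.803 and 1.21 in SCA1-High-FAPs and 1.40, 1.87, 1.21 and 2.09 in SCA1-Low-FAPs, where replicate 3 overlapped with the other cell state.

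**Figure D3:**
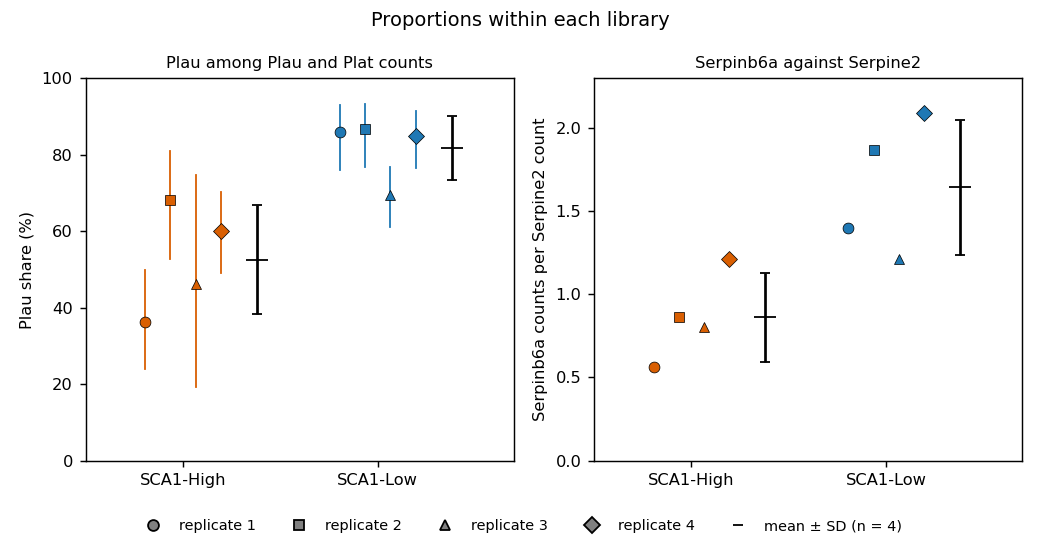
Share of *Plau* in the *Plau* and *Plat* counts in percent (left, with exact 95% binomial intervals as vertical lines) and *Serpinb6a* counts per *Serpine2* count (right) in each sample, with the mean ± SD of each group to the right of its points. The *Plau* share is at most 68.1% in SCA1-High-FAPs and at least 69.4% in SCA1-Low-FAPs, while *Serpinb6a* per *Serpine2* overlaps at 1.21.

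Of 14 other genes listed for the plasminogen system, 11 had counts and 9 could be tested. Higher in SCA1-Low-FAPs was *Anxa2* (log2 fold change 0.61, SE 0.17, adjusted p = 0.033), which encodes annexin A2, a cell surface docking protein for plasminogen and tPA. Lower was *Lrpap1* (−0.86, SE 0.21, adjusted p = 0.0184), which encodes the chaperone of LRP1 and related receptors. These 2 of 9 compare with 7.68% of all tested genes, and the median log2 fold change of the 9 was 0.41. The count was 0 without replicate 3 of SCA1-High-FAPs or without replicate 4 of SCA1-Low-FAPs and 1 without replicate 1 or replicate 2 of SCA1-Low-FAPs. DESeq2, run on all genes with counts, called 4 of the list, among them *Vtn*, which is not of the 9. Not called were *Lrp1*, the receptor that clears complexes of activators and serpins, at 0.42 (adjusted p = 0.0759), *S100a10*, the partner of annexin A2, at 0.30 (adjusted p = 0.426), and the plasminogen receptor gene *Plgrkt* at −0.44 (adjusted p = 0.572, all from edgeR). *Plg*, the gene of plasminogen itself, *Serpinf2* and *Cpb2* had no count in any sample, at depths where 3 counts correspond to 0.753 to 1.60 CPM.

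Of 57 other genes listed with a *Serpin* symbol, 26 had at least 1 count and 7 could be tested. *Serpina3c*, of the antichymotrypsin-like cluster, was lower in SCA1-Low-FAPs, with 57 to 132 counts in SCA1-High-FAPs and 4 to 18 in SCA1-Low-FAPs (log2 fold change −3.30, SE 0.54, adjusted p = 0.00254 from edgeR). Its close paralogs may share reads with it, so that its count is uncertain. It was the 1 gene called of the 7, where 7.68% of all tested genes were called. *Serping1*, which encodes the C1 inhibitor of complement, had a log2 fold change of −1.93 (SE 0.49, adjusted p = 0.0596 from edgeR and 0.00266 from DESeq2). *Serpina3n*, of the same cluster as *Serpina3c* and named after its values were seen, had a log2 fold change of −2.32 (SE 0.78, adjusted p = 0.147 from edgeR and 0.0368 from DESeq2). In both genes all SCA1-Low-FAPs lay below all SCA1-High-FAPs, as in 7.46% of all tested genes. *Serpinh1*, which encodes the collagen chaperone HSP47 and no protease inhibitor, was at 987 ± 248 CPM and 1034 ± 270 CPM (SD, n = 4, log2 fold change 0.07, 95% interval −0.37 to 0.50, adjusted p = 0.904 from edgeR). The count became 4 without replicate 3 of SCA1-Low-FAPs, and 2 without replicate 2 of SCA1-High-FAPs or without replicate 1, 2 or 4 of SCA1-Low-FAPs. DESeq2, run on all genes with counts, called 5 of the list, among them *Serpina3g* and *Serpinb9b*, which are not of the 7. The median log2 fold change of the 7 was 0.03.

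Because protease nexin-1 also inhibits thrombin, 10 genes of thrombin, its receptors and coagulation cofactors were listed. *F2*, the gene of thrombin, had no count in any sample. Of the 5 that could be tested, edgeR called none (7.68% of all tested genes) and gave 2 an unadjusted *p*-value under 0.05 (21.3% of all tested genes), the genes of thrombomodulin, *Thbd*, and of the endothelial protein C receptor, *Procr*. *Thbd* had a log2 fold change of 1.79 (SE 0.56, adjusted p = 0.0652 from edgeR) and was the gene of this list that DESeq2 called. The edgeR count for the list was 1 without replicate 1 of SCA1-High-FAPs or without replicate 3 of SCA1-Low-FAPs. *F2r*, which encodes the main thrombin receptor, was detected at 134.6 ± 66.1 CPM in the first and 201 ± 48.2 CPM in the second cell state (SD, n = 4), 0.58 on the log2 scale (adjusted p = 0.513 from edgeR).

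**Figure D4:**
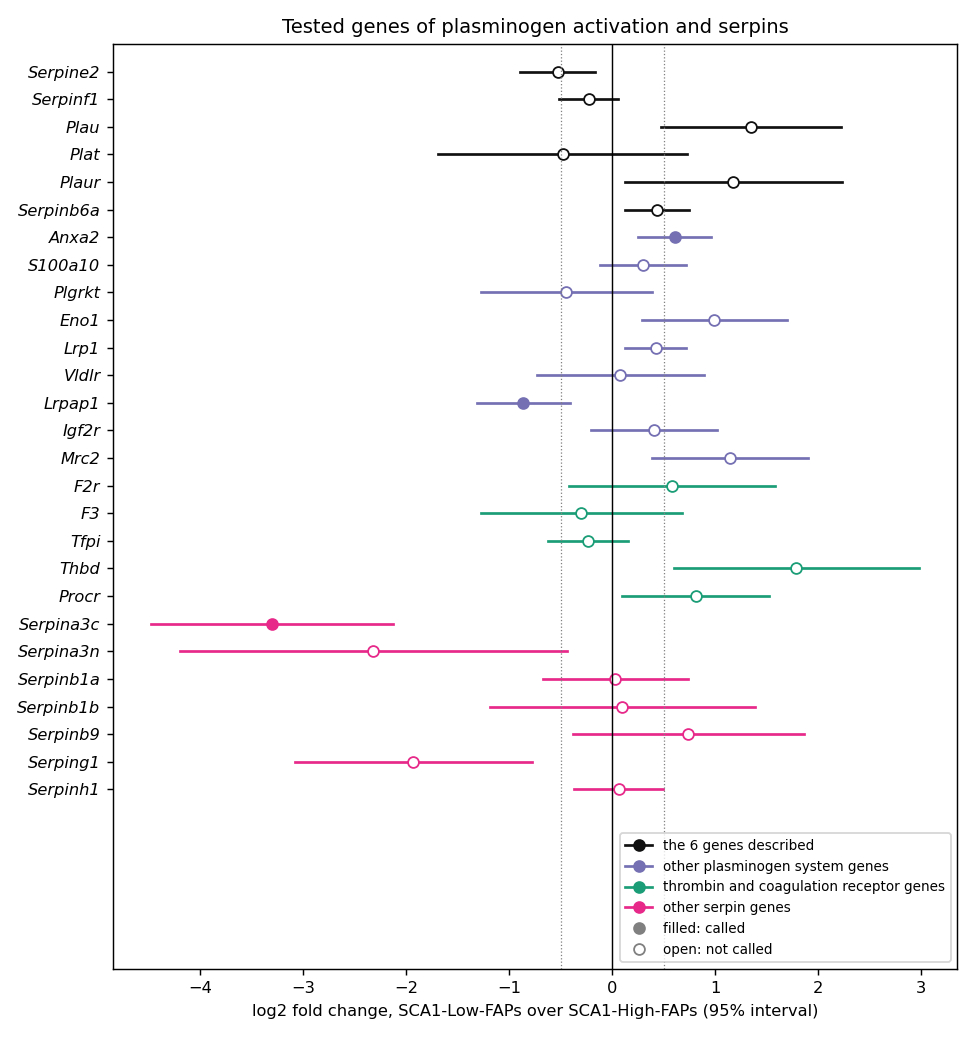
Log2 fold change between the cell states, positive where SCA1-Low-FAPs were higher (horizontal axis) with its 95% interval for the 6 genes (black) and for the tested genes of the other plasminogen system genes (purple), thrombin and coagulation receptor genes (green) and other serpins (pink). Filled points were called and open points were not, and dotted lines mark 0.5 in each direction. *Anxa2*, *Lrpap1* and *Serpina3c* are the 3 filled points.

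The genes whose log2 CPM followed each of the 6 most closely over the 8 samples were taken by Pearson's correlation, as a description of samples that share depth and library preparation. As the closest of all tested genes over 8 samples that include both cell states, these genes have a high r by selection. For *Plau* they were *Rps27l* (r = 0.986), *Psat1* (0.984) and *Kdelr3* (0.981). For *Plaur* they were *Naa50* (0.989), *Ube2d3* (0.958) and *Ahcyl1* (0.956), and for *Plat* *Atp5a1* (0.978), *mt-Cytb* (0.973) and *Foxk1* (0.972). None of the 6 genes was among the closest of another. *Serpine2* was followed most closely by *Mknk2* (r = 0.962), *Xiap* (0.958) and *Glrx* (0.957), *Serpinf1* by *Dguok* (0.971), *Snhg12* (0.952) and *Erlec1* (0.942), and *Serpinb6a* by *Ash2l* (0.977), *Iqgap1* (0.975) and *Ddx46* (0.973). Among the 6 genes themselves r ran from −0.877 for *Serpinf1* and *Plaur* to 0.715 for *Plaur* and *Serpinb6a*, and was 0.42 for urokinase and its receptor.

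Other gene groups moved with the cell state, against a background of 7.68% of all tested genes called by edgeR. All 6 proliferation genes listed were higher in SCA1-Low-FAPs, summing to 524 to 734 CPM in SCA1-High-FAPs and 1021 to 1494 CPM in SCA1-Low-FAPs. These are levels after 5 days of culture and not growth rates. In the growth assay of the study SCA1-High-FAPs had the shorter doubling time, reached confluence earlier and then lost Ki-67 faster. The part of cell density in these mRNA levels was not tested. Of the 7 adipocyte genes, 6 could be tested. In all 6 the SCA1-Low-FAPs lay below the SCA1-High-FAPs without overlap, as in 7.46% of all tested genes. edgeR called 4 of them (*Adipoq*, *Lipe*, *Car3* and *Retn*) and DESeq2 called 6, with *Plin1* at −2.45 (adjusted p = 0.0751) and *Cfd* at −5.46 (adjusted p = 0.0534 from edgeR), and the list had sums of 407 to 3500.0 CPM and 33.0 to 163 CPM. All 9 mesenchymal genes could be tested, and edgeR called 4 of them, in both directions. *Thy1* (0.67, adjusted p = 0.0105) and *Ly6a* were higher in SCA1-Low-FAPs, and *Dcn* (−2.08, adjusted p = 0.0167) and *Col3a1* (−1.03, adjusted p = 0.0294 from edgeR) were lower. Of the 7 pericyte and smooth muscle genes, 3 could be tested and were called (*Cspg4* and *Myh11* higher, *Notch3* lower in SCA1-Low-FAPs), with sums of 26.2 to 50.4 CPM and 29.2 to 67.0 CPM. The haematopoietic sum was 25.3 to 48.0 CPM and 12.5 to 19.3 CPM, and *Lyz2*, the myeloid gene of that list that could be tested, was lower in SCA1-Low-FAPs. Myogenic, endothelial and Schwann lists summed to at most 12.5, 7.39 and 5.88 CPM in any sample, and the tenocyte list to 16.3 to 47.9 CPM and 10.0 to 18.7 CPM. Their part in the levels of the 6 genes was not tested, and in bulk samples fewer cells of a type and less RNA per cell cannot be told apart.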

How the data were processed

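RNA was sequenced from 8 samples, 4 per cell state. The authors made QuantSeq 3′ libraries, trimmed the reads, aligned them to mm10 with STAR and deposited raw counts per gene of Ensembl release 93 from htseq-count, without normalisation. Between 13.4% and 16.5% of uniquely placed reads fell on no gene feature (share of genes plus no feature). Of 31053 genes, 31011 were matched to GENCODE M21 (GRCm38) for names and positions.

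Counts were compared with edgeR 4.0.16 (R 4.3.3; robust quasi-likelihood test, TMM, filterByExpr with minima of 10 and 15 counts) over all genes, with Benjamini-Hochberg adjustment and no pairing. Standard errors were derived from F of the test, and 95% intervals use the test's degrees of freedom. In simulated data for this comparison (10181 genes), edgeR called 99 of 100 genes changed 4-fold and 42 of 100 changed 2-fold, with 5 false calls. DESeq2 called 98 and 42, with 14 false calls. All genes were simulated with the same biological coefficient of variation, 0.279, and the least abundant genes were not among those changed. These shares therefore do not carry over to genes with few counts or a wider spread, such as *Plau*, *Plat* and *Plaur*. DESeq2 1.42.0, RLE factors, other filters, a replicate block, a non-robust fit, an adjusted p of 0.01 and leaving out each sample were the alternatives, and for proportions also sums and medians over a group.

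The 6 genes are always named. From the other lists, called genes and 6 genes set with the lists are named, as are the 3 genes most correlated with each of the 6. The genes and lists were chosen with earlier results of these data known. The ratio with *Serpinb6a* and the values of *Thbd*, *Procr* and *F2r*, were added after values were seen. Replicates of a group differed by more than sampling noise. P-values set the difference between the groups against the spread between these samples, which the tests moderate with that of other genes. Some genes of these lists are not reported here and are left out of the lists' counts.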

Additional observations from a re-analysis of the deposited data

Results flagged for a closer look

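Among 20 groups of 4 values (the 6 genes and 4 proportions in both cell states), 2 values stood apart from the rest of their group by more than Dixon's 95% limit, and chance alone marks about 1 in 20 such groups. Both belong to replicate 3 of SCA1-Low-FAPs and rest on the same *Plat* counts. *Plat* stood at 14.3 CPM there, against 3.96 to 5.44 CPM in the other SCA1-Low-FAPs, with a gap of 0.856 of the group's range. The share of *Plau* in the *Plau* and *Plat* counts was 69.4% there, against 85.0% to 86.7% in the others, with a gap of 0.904 of the range. The library has 45 *Plat* counts, and its cause was not tested.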

How the results depend on the processing

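No result changed direction under any alternative run. DESeq2, run on all genes with counts, gave *Plau* 1.36 (passing), 1 of the 6 genes called, 4 other plasminogen system genes (2 in the main comparison), 5 other serpins (1) and 1 thrombin or coagulation gene (0). It called 1065 genes in all (782). Without a filter on low counts, *Serpine2* at −0.51 (adjusted p = 0.0313) and *Plau* at 1.36 (adjusted p = 0.0058 from edgeR) passed, and the counts were 2, 5, 4 and 1. In that fit 1052 of the 15873 genes with at least 1 count were called. With at least 10 counts in every sample 0 other serpins and 729 genes in all were called, and *Plau*, *Plat* and *Plaur* gave no value. The non-robust fit called 3 other serpins and 781 genes in all. At an adjusted p of 0.01 the count was 0 for the plasminogen system genes, 1 for other serpins and 307 for all genes (782 at 0.05). The cause of these changes was not tested beyond what each setting changes by construction.

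The replicate numbers were not taken to pair samples, since correlations of same-numbered deviations ran from −0.0502 to 0.00673 and 0 of 8 samples correlated best with its own number, and no source used here says whether equal numbers mark the same mouse. With the replicate block in edgeR, 1 other plasminogen system gene, 3 other serpins and 1 thrombin or coagulation gene were called, of 697 genes in all. *Plau* was at 1.52 there (adjusted p = 0.0718 from edgeR). In that fit *Anxa2* (adjusted p = 0.0704) and *Ly6a* (0.0573) did not pass, and *Serping1* (0.000185) and *Serpina3n* (0.000431) did. With the replicate block in DESeq2, *Serpine2* at −0.52 and *Plau* at 1.58 passed. The counts were 2 of the 6 genes, 3 other plasminogen system genes, 5 other serpins and 1 thrombin or coagulation gene, of 838 genes in all.

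Leaving out each sample gave log2 fold changes of −0.64 to −0.39 for *Serpine2*, 1.01 to 1.74 for *Plau* and 0.35 to 0.51 for *Serpinb6a*, each passing in 1 of 8 fits. It gave 0 to 2 of the 6 genes, 0 to 2 plasminogen system genes, 1 to 4 other serpins, 0 to 1 thrombin or coagulation genes and 410 (without replicate 4 of SCA1-Low-FAPs) to 1017 genes in all, with 417 without replicate 1 of SCA1-Low-FAPs. *Plau*, *Plat* and *Plaur* rest on 427, 175 and 169 counts over the 8 samples, and the parts of depth and replicate spread in their errors were not tested.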

Other observations

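*Vtn*, a gene of the plasminogen system list that encodes vitronectin, which binds the urokinase receptor, was below the count filter and was picked once its values were known. There were 10, 7, 27 and 2 counts in SCA1-High-FAPs and 0, 0, 1 and 0 in SCA1-Low-FAPs. The ratio of the summed counts per library size was 53.9 towards SCA1-High-FAPs, with an exact 95% interval of 9.20 to 2174 that covers counting error only. It passed in DESeq2 (adjusted p = 0.00316) and in edgeR without a filter on low counts (adjusted p = 0.00521). *Serpina3g*, another serpin below the filter and picked in the same way, had 31, 8, 42 and 20 counts in SCA1-High-FAPs and 0, 0, 4 and 5 counts in SCA1-Low-FAPs, and passed in DESeq2 (adjusted p = 0.000224), with the same doubt about close paralogs as for *Serpina3c*. *Serpinb9b*, also a serpin below the filter, went the other way. It had 0, 4, 0 and 0 counts in SCA1-High-FAPs and 18, 21, 3 and 14 in SCA1-Low-FAPs, and passed in DESeq2 (adjusted p = 0.0204). *Mrc2*, likewise picked, which encodes a collagen receptor that associates with the urokinase receptor, had 28, 22, 11 and 42 counts against 63, 39, 64 and 91, with a log2 fold change of 1.15 (adjusted p = 0.0589 from edgeR), and was called by DESeq2.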
